A study of Mus musculus with 4 samples.

Results

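The genes described here encode the zinc-dependent histone deacetylases other than Hdac3: Hdac1, Hdac2 and Hdac8 (class I), Hdac4, Hdac5, Hdac7 and Hdac9 (class IIa), Hdac6 and Hdac10 (class IIb) and Hdac11 (class IV). They were chosen by name, and all 10 were measured among 19938 genes, with the probe set of highest mean level standing for a gene that has several. The study put RNA from sorted mouse bone marrow on 4 Affymetrix arrays, each holding cells pooled from 5 to 30 mice of the C57BL/6 background. The null LSK/Flt3- group had 2 arrays of Vav-Cre/Hdac3Flox/- cells, and the wild-type groups, sorted as LSK/Flt3+ or as LSK/Flt3-, had 1 array apiece and are called the Flt3+ wild type and the Flt3- wild type. LSK cells are the lineage-negative, Sca-1 and Kit positive fraction that holds the blood stem cells and earliest progenitors, and Flt3, a cytokine receptor, marks those of them that gain lymphoid potential. In the null mice 1 Hdac3 allele is floxed and the other is already missing, and Vav-Cre, driven by a promoter active throughout the blood system, removes the floxed copy. The sources used here give neither age nor sex of the mice, nor the origin of the null replicates (the same or other mice), so the p-values reflect the spread between these samples alone, and that spread may be technical.

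Histone deacetylases remove acetyl groups from lysines of histones and other proteins, which in chromatin mostly goes with less transcription. Hdac1 and Hdac2 are close relatives that sit together as the enzymatic core of the Sin3, NuRD and CoREST corepressor complexes, while Hdac3 works within the NCoR complex. The class IIa enzymes have little deacetylase activity of their own on acetylated histones. They bind MEF2 transcription factors, move between nucleus and cytoplasm under the control of kinases and 14-3-3 proteins, and are found together with the Hdac3 complex. The comparison asks whether RNA of the other family members is higher where Hdac3 is missing, and RNA levels say nothing of protein or enzyme activity.

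Levels are RMA values on a log2 scale, so a difference of 1 is a 2-fold change, and the level of one probe set cannot be set against that of another. Over all probe sets, the median level was 5.60 on null replicate 1, 5.30 on null replicate 2, 5.36 in the Flt3+ wild type and 5.32 in the Flt3- wild type. The median difference of all genes was 0.09 for null against the Flt3- wild type and 0.05 for null against the Flt3+ wild type, and a gene's difference is best read against these values. Differences were tested with limma over all genes, with an adjusted p under 0.05 as the threshold. The spread between replicates came from the null pair, and each single wild-type array was assumed to vary as that pair does. Both comparisons use the same null arrays, so they are not independent.

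In null against the Flt3- wild type, no difference of an HDAC gene passed the test. Of the 10, 0 passed the limma test (adjusted p = 1 for each) and 0 had an unadjusted p under 0.05. Of all genes, 0.0201% passed the test and 2.4% had an unadjusted p under 0.05. The differences lay between -0.29 for Hdac2 and 0.35 for Hdac7, with standard errors of 0.31 to 0.36. By mean difference 7 genes were higher and 3 lower, where 65.0% of all genes were higher and 34.9% lower, and the median of the 10 was 0.12 beside 0.09 for all genes. With array medians aligned, 5 of the 10 were higher. As deposited, 5 were higher on both null arrays (41.3% of all genes) and 3 lower on both (19.9% of all genes). The 95% intervals all held 0. Their upper ends ran from 1.31-fold for Hdac2 to 2.23-fold for Hdac7, and 7 of the 10 intervals held no 2-fold rise. All 10 held no 2-fold fall. With array medians aligned, 8 held no 2-fold rise and 8 no 2-fold fall, since the intervals of Hdac1 and Hdac2 then reached down to -1.07 and -1.18. As deposited, intervals for Hdac5, Hdac7 and Hdac10 reached past 2-fold, so a 2-fold rise of these 3 lies within the error of these 4 arrays.

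**Figure D1:**
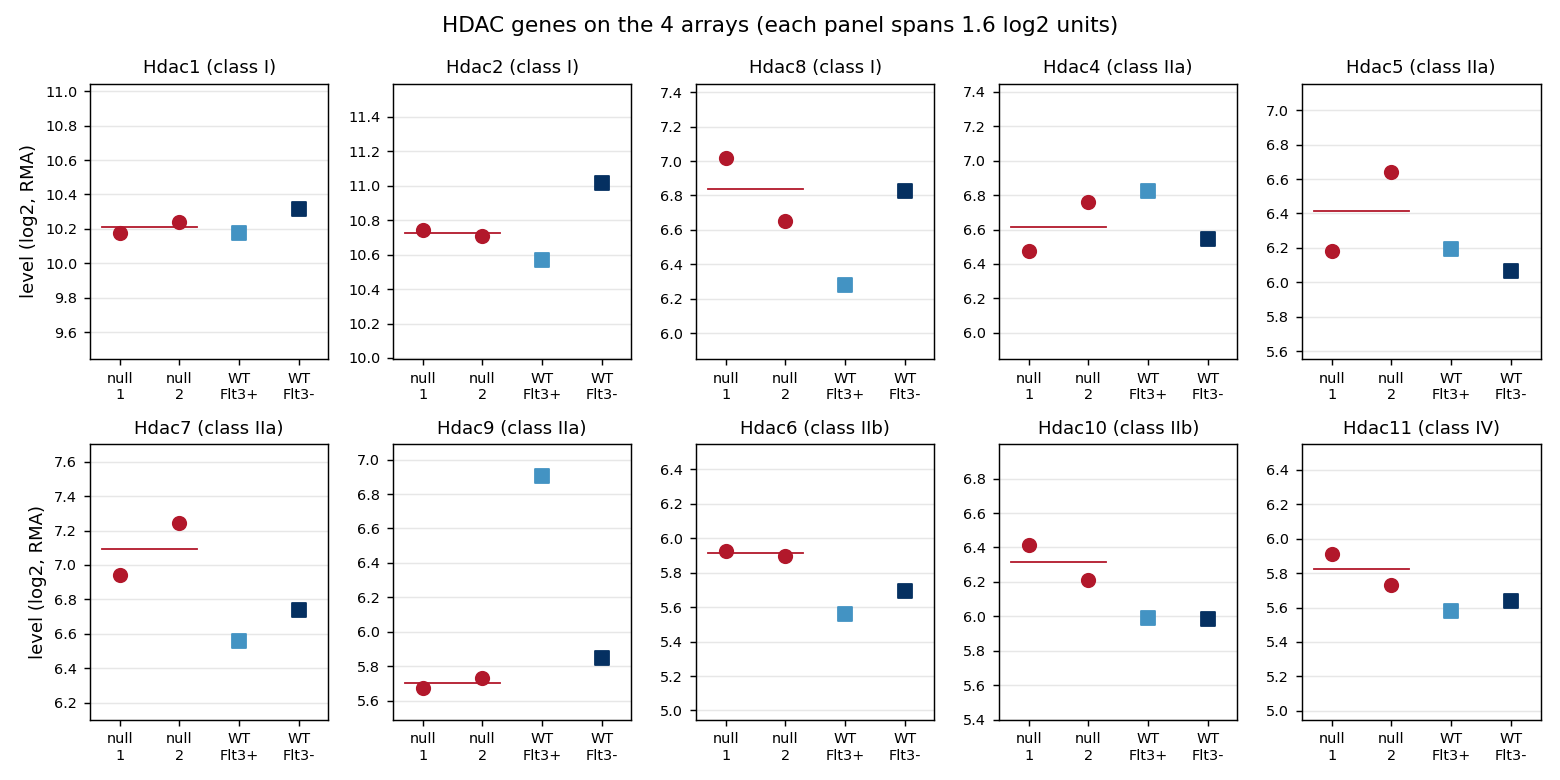
Each panel plots 1 HDAC gene on the 4 arrays, with the log2 RMA level on the vertical axis over a span of 1.6 units; circles are the 2 null arrays, the line their mean, and squares the single wild-type arrays. Hdac9 stands out in the Flt3+ wild type at 6.90, and Hdac1 spans 0.14 as deposited. Hdac6, Hdac7, Hdac10 and Hdac11, as deposited, are higher on both null arrays than on both wild-type arrays by small amounts. Of all genes, 23.0% were higher on both null arrays in this way. With array medians aligned, Hdac7 overlaps.

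The class I genes Hdac1 and Hdac2 encode the enzymes most like Hdac3. Hdac1 had levels of 10.18 and 10.24 on null replicates 1 and 2, 10.17 in the Flt3+ wild type and 10.31 in the Flt3- wild type. As deposited its range over the 4 arrays was 0.14, the smallest of the 10, and the null values lay between the wild-type ones. With array medians aligned the range was 0.34, with null replicate 1 at 10.05, below both wild-type arrays. The difference from the Flt3- wild type was -0.11 ± 0.32 (SE), with a 95% interval of -0.82 to 0.61. The annotation gives a second probe set for Hdac1 with the same accessions, which stood at 9.63 and 9.91 on the null arrays, 9.84 in the Flt3+ wild type and 10.01 in the Flt3- wild type. RefSeq also lists a pseudogene copy, Hdac1-ps. Whether either probe set reads the copy was not tested, so the level of Hdac1 is uncertain to that extent.

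Hdac2 had levels of 10.74 and 10.71 on the null arrays, 10.57 in the Flt3+ wild type and 11.02 in the Flt3- wild type. The null arrays differed by 0.033 and lay between the wild-type arrays. They were below the Flt3- wild type by more than that gap (-0.29 ± 0.31, SE; 95% interval -0.97 to 0.39), but by less than the fitted standard error. Hdac2 thus had the lowest upper bound of the 10 in this comparison. Against the Flt3+ wild type the difference was 0.16 (95% interval -0.52 to 0.84).

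Hdac8 encodes the class I enzyme that works outside these corepressor complexes and deacetylates the cohesin subunit Smc3. It had levels of 7.02 and 6.65 on the null arrays, 6.28 in the Flt3+ wild type and 6.82 in the Flt3- wild type. The null arrays lay on either side of the Flt3- wild type, with a mean difference of 0.012 ± 0.36 (SE). Both were above the Flt3+ wild type, by a mean of 0.56 ± 0.36 (SE), the largest positive difference of the 10 in that comparison, with an unadjusted p of 0.156 and an adjusted p of 1 (limma). The wild-type arrays themselves were 0.54 apart, with Hdac8 lower in the Flt3+ wild type.

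Among the class IIa genes, Hdac7, which encodes the member best known from thymocytes and the vessel wall, was higher on both null arrays than on both wild-type arrays as deposited. Its levels were 6.94 and 7.24 on the null arrays, against 6.56 in the Flt3+ wild type and 6.74 in the Flt3- wild type. The groups did not overlap, but after the array medians were aligned they did, with null replicate 1 at 6.81 and the Flt3- wild type at 6.82. The differences were 0.35 ± 0.36 (SE) from the Flt3- wild type and 0.53 ± 0.36 (SE) from the Flt3+ wild type, with unadjusted p of 0.349 and 0.169 and adjusted p of 1 for each (limma).

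Hdac5 had levels of 6.18 and 6.64 on the null arrays, 6.20 in the Flt3+ wild type and 6.07 in the Flt3- wild type. Null replicate 2 was above the other 3 arrays, which lay within 0.13 of each other. The gap of 0.46 between the null replicates was the widest of the 10 genes and exceeded the mean difference of 0.35 from the Flt3- wild type. Hdac4 had levels of 6.47 and 6.76 on the null arrays, 6.82 in the Flt3+ wild type and 6.55 in the Flt3- wild type, and null and wild-type values interleaved. A second probe set of Hdac4 gave another order, with 6.42 and 5.87 on the null arrays, 5.86 in the Flt3+ wild type and 5.86 in the Flt3- wild type, so that null replicate 1 alone stood apart there.

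Hdac9, a class IIa gene whose product binds MEF2 factors, varied most of the 10, through its level in the Flt3+ wild type. Its levels were 5.67 and 5.73 on the null arrays, 6.90 in the Flt3+ wild type and 5.85 in the Flt3- wild type. The null arrays were 0.057 apart and both lay below both wild-type arrays, close to the Flt3- wild type (difference -0.14 ± 0.33, SE). The Flt3+ wild type stood 1.06 above the Flt3- wild type, a 2.08-fold difference without a replicate check, and Hdac9 was the only HDAC gene at least 2-fold apart there, as were 0.923% of all genes in the same direction (0.176% in the other). It was also at least 2-fold above each of the other 3 arrays, as were 0.567% of all genes. The wild-type difference was just short of 2-fold, at 0.98 on the log2 scale, once array medians were aligned. Against the Flt3+ wild type the null arrays differed by -1.20 ± 0.33 (SE; 95% interval -1.94 to -0.46). The unadjusted limma p was 0.0049, but over all genes the difference did not pass (adjusted p = 0.444). Over 7 other settings the adjusted p ranged from 0.205 to 0.887. These include the setting with both wild-type arrays as 1 group, which is another contrast. Against the Flt3+ wild type alone, Hdac9 was the only HDAC gene with an unadjusted p under 0.05, where 3.44% of all genes had one.

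Several marker lists were also higher in the Flt3+ than in the Flt3- wild type. Of all genes, 0.923% were at least 2-fold higher in that direction. Lymphoid priming genes had a mean level over 8 genes of 5.39 and 4.93 on the null arrays, 6.79 in the Flt3+ wild type and 5.94 in the Flt3- wild type, and 3 of the 8 were at least 2-fold higher in the Flt3+ wild type than in the Flt3- wild type. Between null and the Flt3- wild type, 4 of these 8 genes were higher in null by mean difference and 4 lower. The low null mean thus does not hold for every gene of the list. Dntt, a DNA polymerase active while antigen receptor genes are joined, had levels of 5.83 and 4.56 on the null arrays, 10.14 in the Flt3+ wild type and 8.33 in the Flt3- wild type. Macrophage markers had a mean level over 11 genes of 4.96 and 4.78 on the null arrays, 6.55 in the Flt3+ wild type and 4.88 in the Flt3- wild type, and 7 of the 11 were at least 2-fold higher in the Flt3+ wild type than in the Flt3- wild type. Mrc1, the mannose receptor of tissue macrophages, had levels of 4.46 and 4.53 on the null arrays, 8.62 in the Flt3+ wild type and 4.70 in the Flt3- wild type. Cd68, another macrophage marker, had levels of 8.02 and 8.38 on the null arrays, 8.54 in the Flt3+ wild type and 6.95 in the Flt3- wild type. By mean difference 5 of the 11 macrophage markers were higher in null than in the Flt3- wild type and 6 lower, where 65.0% of all genes were higher. Of 8 mast cell and basophil genes, 3 were at least 2-fold higher in the Flt3+ than in the Flt3- wild type, and the B lineage and endothelial lists also had their highest means there. The part of these cell types in the level of Hdac9 was not tested. In RNA from sorted pools, fewer cells of a type and less RNA per cell cannot be told apart.

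**Figure D2:**
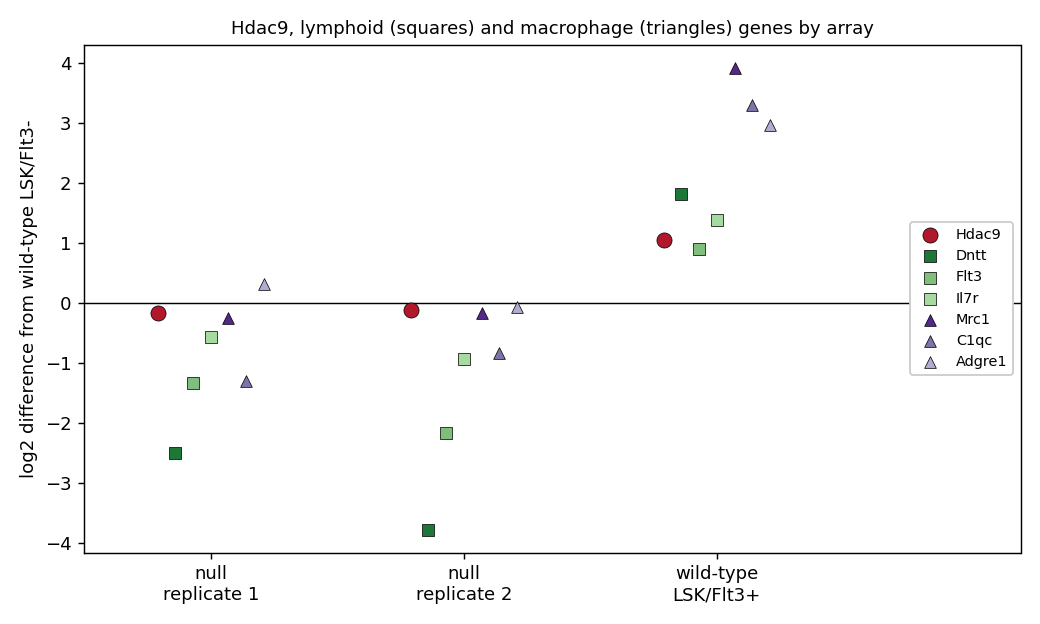
The vertical axis gives the log2 difference of each gene from its own level in the Flt3- wild type, on the null arrays and in the Flt3+ wild type. The circle is Hdac9, squares are the lymphoid genes Dntt and Il7r and the sort gene Flt3, and triangles the macrophage genes Mrc1, C1qc and Adgre1. All 7 are above 0 in the Flt3+ wild type, Hdac9 by 1.06. The markers were picked after their values were seen, so their place there is no test of a link to Hdac9. On the null arrays Hdac9 is at -0.17 and -0.12 and Dntt is far below 0.

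The class IIb genes are Hdac6 and Hdac10, and Hdac11 is the sole class IV gene. Hdac6, which encodes the cytoplasmic deacetylase of tubulin, had levels of 5.93 and 5.90 on the null arrays, 5.56 in the Flt3+ wild type and 5.70 in the Flt3- wild type. Hdac10, whose product acts on polyamines, had levels of 6.41 and 6.21 on the null arrays, 5.99 in the Flt3+ wild type and 5.98 in the Flt3- wild type. Hdac11, which encodes the smallest family member and removes long fatty acyl groups from lysines, had levels of 5.91 and 5.73 on the null arrays, 5.58 in the Flt3+ wild type and 5.64 in the Flt3- wild type. All 3 were higher on both null arrays than on both wild-type arrays, as were 23.0% of all genes. Their mean differences were 0.22, 0.33 and 0.18 from the Flt3- wild type and 0.35, 0.32 and 0.24 from the Flt3+ wild type (SE 0.33, 0.34 and 0.33). With array medians aligned the differences from the Flt3- wild type were 0.10, 0.21 and 0.063. None of the 3 passed the limma test in either comparison (adjusted p = 1 for each), and their unadjusted p lay between 0.308 for Hdac6 against the Flt3+ wild type and 0.595 for Hdac11 against the Flt3- wild type.

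With Hdac7, 4 of the 10 HDAC genes were higher on both null arrays than on both wild-type arrays, as were 23.0% of all genes. Hdac9 was lower on both, as were 11.7% of all genes. The remaining 5 overlapped. With array medians aligned the counts were 3 higher (without Hdac7) and 1 lower, where 17.0% of all genes were higher and 17.9% lower. Null replicate 1 carried an offset that depends on level. Over all genes with a mean level under 6 its median difference from the Flt3- wild type was 0.25 against 0.03 for null replicate 2, and over genes of at least 6 these medians were -0.02 and 0.02. Of all genes under a mean level of 6, 26.3% were higher on both null arrays and 7.85% lower. Hdac6 and Hdac11, with mean levels of 5.77 and 5.72, lie in the range of that offset, and null replicate 1 was the higher of the null arrays for Hdac6, Hdac10 and Hdac11. On null replicate 2, where all genes showed little offset, the differences from the Flt3- wild type were 0.20, 0.23 and 0.088 for these 3 genes. The part of the offset in their differences was not tested.

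**Figure D3:**
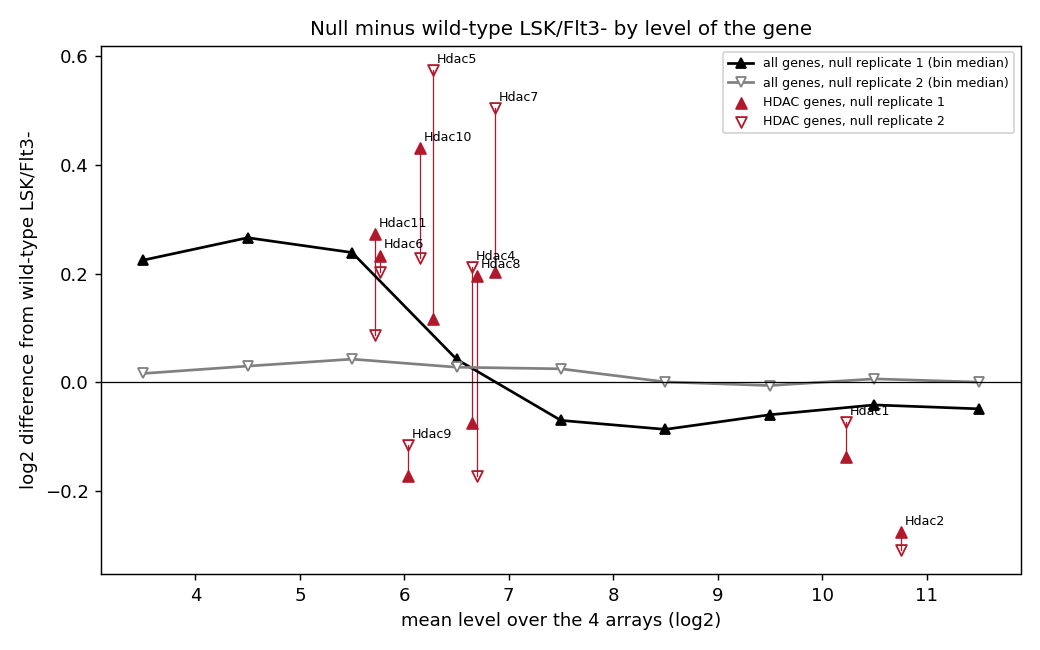
The horizontal axis is the mean log2 level over the 4 arrays and the vertical axis the log2 difference from the Flt3- wild type; lines join medians of all genes in bins 1 unit wide (the end bins are open), and red symbols are the 10 HDAC genes on null replicate 1 (filled) and 2 (open). The line of null replicate 1 lies at 0.24 for levels of 5 to 6 and at -0.07 for levels of 7 to 8, while that of replicate 2 stays between -0.0058 and 0.043.

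Hdac6 and Hdac8 lie on the X chromosome, and the arrays differed in sex-linked RNA. Xist, a noncoding RNA made from the silenced X chromosome in female cells, had levels of 10.84 and 9.67 on the null arrays, 3.90 in the Flt3+ wild type and 4.23 in the Flt3- wild type. Kdm5d, a Y-linked gene, had levels of 8.02 and 7.31 on the null arrays, 8.32 in the Flt3+ wild type and 8.66 in the Flt3- wild type. Genotype and the sex of the pooled mice therefore cannot be told apart for a single gene in these arrays. The 739 X-linked genes had a median difference of 0.09 between null and the Flt3- wild type, the same as the 0.09 of 19106 autosomal genes. Among genes with a mean level of at least 6, these medians were -0.02 for 259 X-linked and 0.0057 for 8140 autosomal genes. A median over many genes cannot decide whether sex bears on Hdac6 or Hdac8, and this was not tested.

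In null against the Flt3+ wild type, 0 of the 10 HDAC genes passed the limma test and 1, Hdac9, had an unadjusted p under 0.05. Of all genes 0.316% passed. By mean difference 8 genes were higher and 2 lower, Hdac9 and Hdac4 (-0.21), where 56.9% of all genes were higher and 43.1% lower, and the median of the 10 was 0.23 beside 0.05 for all genes. On both null arrays 7 were higher (35.0% of all genes) and 2 lower (25.1% of all genes). The 95% intervals of 9 genes held 0. For 5 of the 10 the interval held no 2-fold rise, and its upper end was highest for Hdac8, at 2.57-fold. This comparison holds the difference of sorted fraction as well as that of genotype. The fractions alone, the Flt3+ wild type against the Flt3- wild type, differed by 1.06 for Hdac9, 0.28 for Hdac4 and 0.13 for Hdac5, and by -0.54 for Hdac8, -0.45 for Hdac2, -0.18 for Hdac7, -0.14 for Hdac1 and -0.13 for Hdac6. Hdac10 differed by 0.0061 and Hdac11 by -0.059 between the wild-type arrays.

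**Figure D4:**
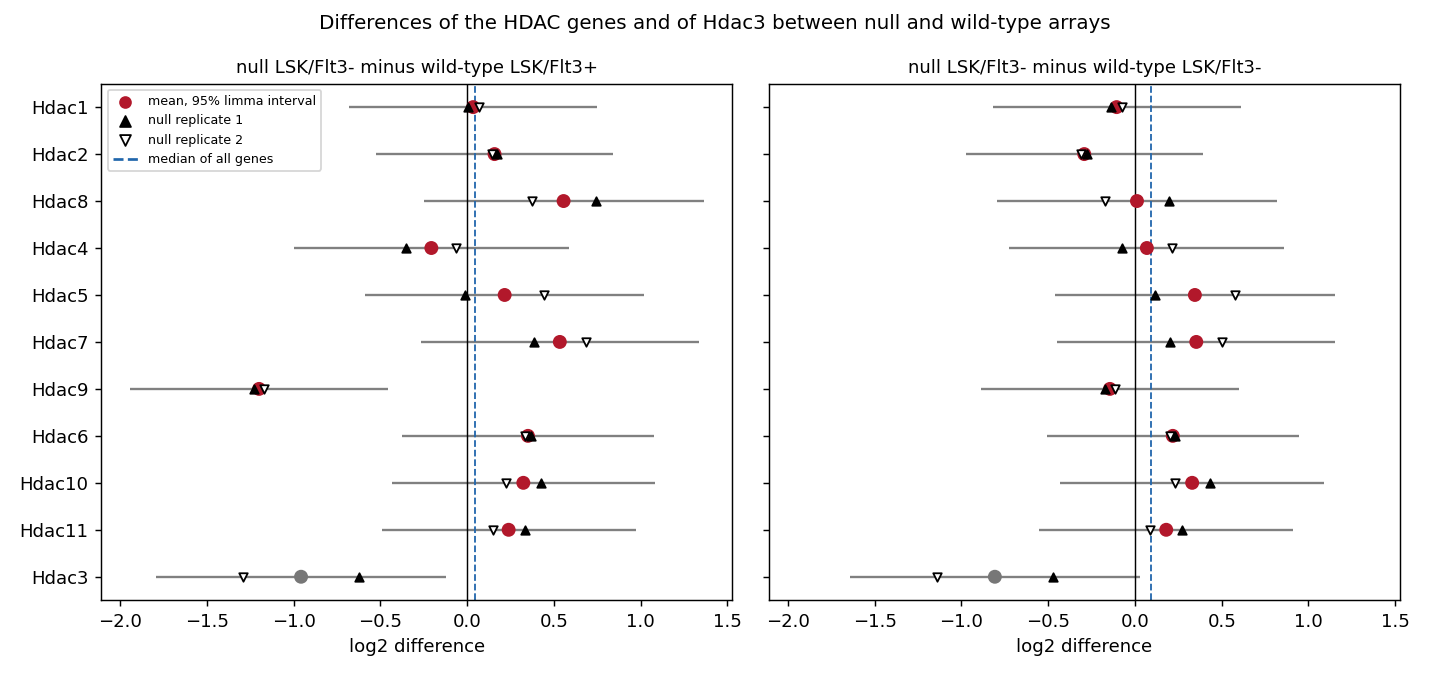
Each row is 1 HDAC gene, with Hdac3 at the bottom in grey; the horizontal axis gives the log2 difference of null LSK/Flt3- cells from the Flt3+ wild type (left) and the Flt3- wild type (right). Circles are means with 95% limma intervals, triangles the null replicates, and the dashed line is the median of all genes. The interval of Hdac9 against the Flt3+ wild type, -1.94 to -0.46, is the only one of the 10 HDAC genes in either panel that does not hold 0.

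Hdac3 itself, the deleted gene, had levels of 5.71 and 5.04 on the null arrays, 6.33 in the Flt3+ wild type and 6.18 in the Flt3- wild type. It was lower on both null arrays than on both wild-type arrays, with differences of -0.96 and -0.81 ± 0.38 (SE) that did not pass the limma test (adjusted p = 1 for each). No source used here says whether its probes lie in the deleted part, so its level is no check of the labels.

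The ranges over the 4 arrays put the 10 HDAC genes near other genes. The median range was 0.44 for them and 0.46 for all genes, and the median gap between the null replicates was 0.19 for them and 0.27 for all genes. As deposited and sorted within each gene, neighbouring arrays were never farther apart than the null replicates were for Hdac4, Hdac5, Hdac7 and Hdac11. For Hdac9 the Flt3+ wild type was set off from the next by 1.06 and the Flt3- wild type from the null arrays by 0.12, against a null gap of 0.057. For Hdac2 the Flt3- wild type was above and the Flt3+ wild type below the null pair by more than its gap of 0.033. For Hdac6 the null pair lay above the Flt3- wild type, and that array above the Flt3+ wild type, by more than its gap of 0.030. Hdac1, Hdac8 and Hdac10 each had 1 step wider than the null gap. The steps beside the null pairs depend on the scaling. With array medians aligned, the null gap of Hdac6 was 0.15 and its step down to the Flt3- wild type 0.027. For Hdac9 the null gap was then 0.23 and the Flt3- wild type lay 0.14 above the null arrays. Other steps were wider than the null gap with array medians aligned. For Hdac2 the aligned null gap was 0.14 and the Flt3- wild type lay 0.34 above the null arrays. Aligned, the null pair lay above the Flt3- wild type by 0.20 for Hdac10 (null gap 0.024) and by 0.059 for Hdac11 (null gap 0.0074). As deposited that step of Hdac11 was narrower than its null gap, at 0.088 against 0.18.

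Genes whose centred levels over the 4 arrays lay closest to the 3 most variable HDAC genes were looked up among 8142 named genes with a mean level of at least 6. For Hdac9 they were Il6st, the shared signalling chain of the interleukin 6 receptor family, with a root mean square distance of 0.050, then Marcks, a protein kinase C substrate (0.064), and the chemokine Ccl6 (0.078). Il6st had levels of 7.04 and 7.17 on the null arrays, 8.32 in the Flt3+ wild type and 7.35 in the Flt3- wild type. In all 6 genes lay within 0.1 of Hdac9. For Hdac8 the nearest were the splicing genes Ddx46 (0.013) and Srrm1 (0.030) and the phospholipid flippase gene Atp8a1 (0.034), and for Hdac7 they were Sdad1 (0.011), the lipid transporter gene Abca7 (0.032) and the protein disulfide isomerase gene Pdia6 (0.034). As many as 111 and 109 genes lay within 0.1 of Hdac8 and Hdac7, so with 4 arrays such likeness is common.

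The partners and counterparts of the HDACs were followed in 10 lists, with 115 of 120 genes measured, and 0 of the 115 passed the limma test in either comparison. At an unadjusted p under 0.05, 1 was lower against the Flt3- wild type, Kat6b. Against the Flt3+ wild type 3 were lower, the deleted gene Hdac3, Mier3 and the kinase gene Camk1d (-0.79, adjusted p = 1). Camk1d was chosen after its values were seen. At that threshold 259 of all 19938 genes were lower against the Flt3- wild type and 460 against the Flt3+ wild type. Sirtuins, the NAD-dependent deacetylases, had 5 of 7 genes higher and 2 lower in null than in the Flt3- wild type, where 65.0% of all genes were higher. Their median was 0.15 for the mean of the null arrays but -0.0039 on null replicate 1 and -0.042 on null replicate 2. Sirt2 had levels of 6.70 and 7.35 on the null arrays, 7.62 in the Flt3+ wild type and 7.61 in the Flt3- wild type, and both null values lay below both wild-type ones.

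Counts for the lists that follow are read against the genes with a mean level of at least 6. Of these, 50.7% were higher and 49.3% lower in null than in the Flt3- wild type. The lists were not filtered by level, so that background is only approximate. Zfp541, Sfn, Cecr2 and Chd5, for instance, lay under 6 on every array. Of 11520 genes with a mean level under 6, 8701 were higher and 2815 lower. For the complexes that hold Hdac1 and Hdac2, in null against the Flt3- wild type, 3 of 17 Sin3 complex genes were higher and 14 lower (median -0.19), 6 of 13 NuRD genes higher and 7 lower (median -0.02), and 10 of 16 genes of the CoREST, MiDAC and MIER complexes higher and 6 lower (median 0.05). Of the Sin3 genes, 6 of 17 were lower on both null arrays than on both wild-type arrays. Among all genes with a mean level of at least 6, 16.9% were. The chromatin reader gene Ing2 had levels of 7.54 and 7.82 on the null arrays, 8.25 in the Flt3+ wild type and 8.24 in the Flt3- wild type (difference from the Flt3- wild type -0.56, unadjusted p = 0.156, adjusted p = 1, limma), and Sap30, a Sin3 subunit gene, differed by -0.52. The histone chaperone gene Rbbp4, shared by Sin3 and NuRD, had levels of 9.03 and 8.94 on the null arrays, 8.72 in the Flt3+ wild type and 8.68 in the Flt3- wild type. Mier3, which encodes a scaffold of an Hdac1 and Hdac2 complex, was below the Flt3+ wild type, with levels of 8.45 and 8.34 on the null arrays, 9.39 in the Flt3+ wild type and 8.79 in the Flt3- wild type (unadjusted p = 0.0175, adjusted p = 0.897, limma).

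Of the NCoR complex, 3 of 5 measured genes were higher in null than in the Flt3- wild type and 2 lower, Hdac3 among them. The scaffold genes Tbl1x and Tbl1xr1, which hold the complex together, differed by 0.40 and 0.30 (unadjusted p = 0.285 and 0.377, limma). Both were higher on both null arrays than on both wild-type arrays, as were 18.4% of genes with a mean level of at least 6. Tbl1x had levels of 9.04 and 9.27 on the null arrays, 8.93 in the Flt3+ wild type and 8.75 in the Flt3- wild type.

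Next come genes that act on or with the class IIa enzymes. Of 16 MEF2 factor and class IIa kinase genes, 4 were higher and 12 lower in null than in the Flt3- wild type (median -0.11), beside 49.3% lower among genes of at least level 6. Of the 16, 7 were lower on both null arrays than on both wild-type arrays, beside 16.9% of genes of at least level 6. The kinase genes Prkd3 and Sik1, whose products phosphorylate class IIa enzymes for export from the nucleus, differed by -0.45 and -0.38. Mef2a, a MEF2 factor gene, had levels of 8.17 and 7.45 on the null arrays, 8.48 in the Flt3+ wild type and 8.10 in the Flt3- wild type, so the null replicates lay on either side of the Flt3- wild type. Of 7 genes for 14-3-3 proteins, 1 was higher and 6 lower (median -0.08).

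Histone acetyltransferases, which oppose the HDACs, had 2 of 13 genes higher and 11 lower in null than in the Flt3- wild type (median -0.10), beside the same 49.3%, and 5 were lower on both null arrays than on both wild-type arrays. Kat6b had levels of 6.82 and 6.39 on the null arrays, 6.88 in the Flt3+ wild type and 7.59 in the Flt3- wild type (difference from the Flt3- wild type -0.98, unadjusted p = 0.0246, adjusted p = 1, limma). Its level in the Flt3+ wild type lay near that of null replicate 1. Bromodomain genes, whose products bind acetylated lysine, had 6 of 15 higher and 9 lower (median -0.08), with Cecr2 at -0.63. Of the genes of cohesin and its acetylation, 3 of 8 were higher and 5 lower (median -0.06), and Esco2, an acetyltransferase for Smc3, was at 0.62 (adjusted p = 1, limma). The level of Esco2 was 7.20 both in the Flt3+ wild type and on null replicate 1. Against the Flt3+ wild type the majority turned in both lists, with 12 bromodomain genes higher and 3 lower, and 6 cohesin genes higher and 2 lower. Of 8418 genes with a mean level of at least 6, 4353 were higher and 4065 lower there. Beside the counts on both null arrays, 16.9% of all genes with a mean level of at least 6 were lower on both null arrays than on both wild-type arrays and 18.4% higher.

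**Figure D5:**
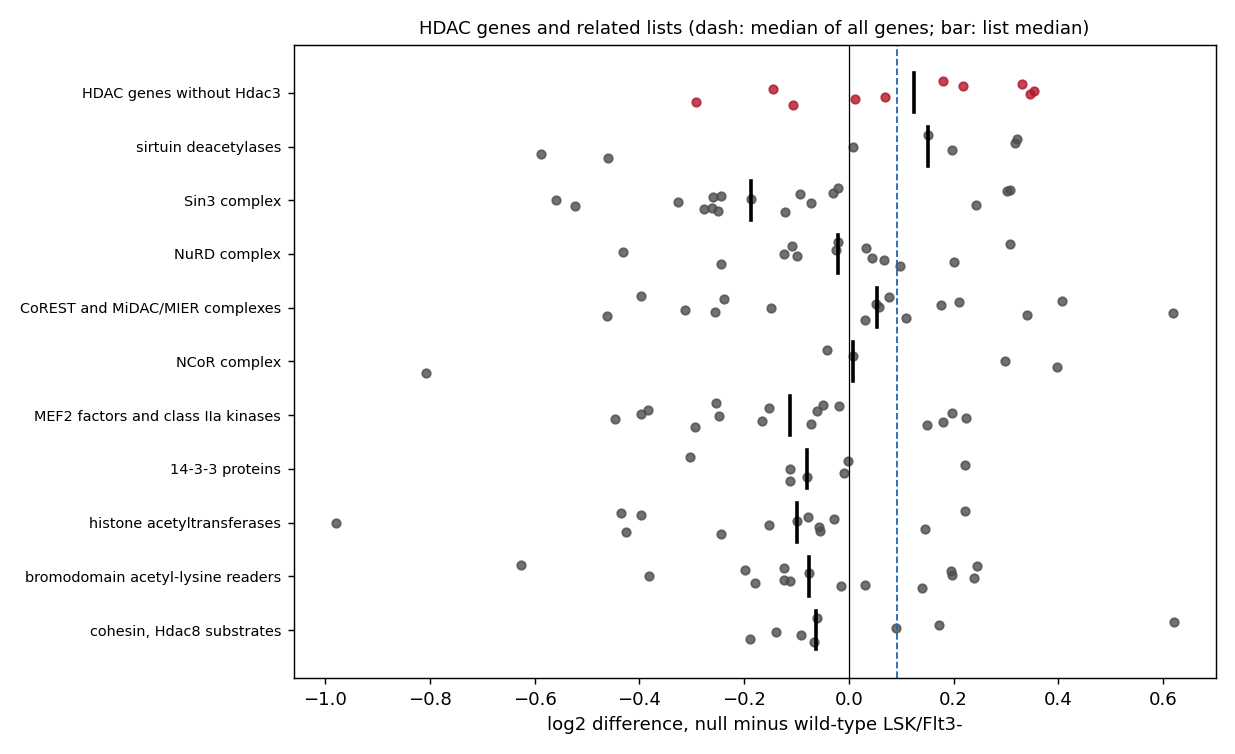
Each point is 1 gene, placed by its log2 difference between null and the Flt3- wild type; rows are the HDAC genes without Hdac3 and the 10 related lists, black bars the list medians and the dashed line the median of all genes, 0.09. List medians run from -0.19 for the Sin3 complex to 0.15 for the sirtuins, and the HDAC genes span -0.29 to 0.35.

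Marker genes of other cell types differed between the arrays. Of 96 measured, 1 passed the limma test against the Flt3- wild type and 12 against the Flt3+ wild type. Of all genes, 0.0201% and 0.316% passed in these comparisons. Granulocyte-monocyte progenitor genes, a mean over 12 genes, stood at 8.30 and 8.63 on the null arrays, 7.66 in the Flt3+ wild type and 7.19 in the Flt3- wild type, and 9 of the 12 were higher on both null arrays than on both wild-type arrays, beside 23.0% of all genes. Against the Flt3+ wild type 1 gene of this list passed as higher and 1 as lower, Csf1r (-2.34, adjusted p = 0.025, limma). Mast cell and basophil genes, a mean over 8 genes, stood at 6.28 and 6.99 on the null arrays, 6.30 in the Flt3+ wild type and 5.62 in the Flt3- wild type. Stem cell and LSK genes, a mean over 10 measured genes, stood at 8.35 and 8.05 on the null arrays, 8.06 in the Flt3+ wild type and 8.27 in the Flt3- wild type. That mean holds differences of opposite sign from the Flt3+ wild type. Slamf1, a stem cell surface receptor, differed by 3.27 (adjusted p = 0.0051, limma) and Flt3 by -2.64 (adjusted p = 0.032, limma). The cells were sorted on Flt3, so a lower Flt3 level was built into this comparison and is no test of genotype. The difference of Slamf1 there holds sorted fraction as well as genotype. From the Flt3- wild type Slamf1 differed by 2.18 and Flt3 by -1.75, and neither passed (adjusted p = 0.174 and 0.692, limma). Erythroid genes (8 measured) stood at 7.12 and 8.15 on the null arrays, 7.87 in the Flt3+ wild type and 8.34 in the Flt3- wild type. Megakaryocyte and platelet genes (5 measured) stood at 6.76 and 8.02 on the null arrays, 6.78 in the Flt3+ wild type and 6.82 in the Flt3- wild type, so that null replicate 2 alone was high. The 4 lists for mature neutrophils and monocytes, B lineage, T and NK cells, and endothelial and stromal cells had mean levels of 4.97 to 5.35 on the null arrays, 4.91 to 5.67 in the Flt3+ wild type and 4.70 to 5.44 in the Flt3- wild type. The part of these differences in the levels of the HDAC genes was not tested.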

How the data were processed

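Values were deposited on a log2 scale, 1 per probe set and array. The submitters' processing notes name RMA and affy 1.23 as what the authors used. RMA removes background, brings arrays to a common distribution and combines the probes of a set, yet the array medians were unequal. No source used here names the genome build or the scan dates, and no batch could be assigned. Of 35556 probe sets, 21789 had 1 gene symbol in the platform's annotation, and 21698 of them matched by Entrez number. Probe sets with several symbols (1621) or not listed (12146) were not used here. Where a symbol had several probe sets, the one of highest mean stood for it, which left 19938 genes. HDAC genes had 1 probe set each, except Hdac1 and Hdac4.

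All 4 arrays entered 1 fit with 3 groups in limma 3.58.1 (R 4.3.3) with a mean-dependent prior. It had 1 residual and 9.01 prior degrees of freedom. Tests were two-sided, with Benjamini-Hochberg adjustment over all genes. Precision is limited by having 4 arrays, with a median standard error of 0.34 for a difference. No p-value was computed between the wild-type arrays.

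The members, the 10 related lists and the 11 marker lists were chosen with earlier results of these data known. Every HDAC gene is named. Of each related list up to 4 genes with the largest difference between null and wild-type LSK/Flt3- cells could be named. For the 3 members with the largest range the 3 nearest genes were named. Camk1d, Xist, Kdm5d, Slamf1, C1qc, Adgre1, Il7r and the other marker genes shown were picked after their values were seen. From the related lists 5 of 120 genes and from the marker lists 10 of 106 were not analysed here. The alternatives were other scalings, the mean of all probe sets, a minimum mean level of 6, other priors, both wild-type arrays as 1 group, each null replicate left out and, added after the data were seen, the other probe sets of Hdac1 and Hdac4.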

Additional observations from a re-analysis of the deposited data

How the results depend on the processing

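No HDAC gene passed limma where it was tested under the 7 alternatives with a test, in either comparison. With both wild-type arrays as 1 group, the contrast of null against both of them stands for either comparison. Hdac6 and Hdac11 were not in the fit over genes with a mean level of at least 6, which held 8 of the 10. Leaving out a null replicate leaves no residual degree of freedom and gives values only. Against wild-type LSK/Flt3- cells, the count of all genes past the test (4 higher, 0 lower) was 0 higher after quantile normalization, 2 higher with array medians aligned, and 12 higher and 13 lower with a robust prior. The median HDAC difference, 0.12 as reported, was 0.068 after quantile normalization, 0.0074 with medians aligned, 0.18 with the mean of all probe sets, 0.040 over genes with a mean level of at least 6, 0.25 with both wild-type arrays as 1 group, and 0.15 to 0.16 with 1 null replicate left out. Against wild-type LSK/Flt3+ cells, 7 genes were higher and 56 lower. The lower count was 89 with medians aligned, 17 over genes of at least 6, 99 (with 15 higher) with a robust prior and 0 with the wild-type arrays as 1 group. Between the wild-type arrays, the count of HDAC genes at least 2-fold apart, 1 as reported, was 0 after quantile normalization and 0 with medians aligned, with Hdac9 at 0.98 in both.

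Some signs turned. Against wild-type LSK/Flt3- cells, Hdac8 was -0.11 and Hdac4 -0.048 with medians aligned, and Hdac4 -0.069 with the wild-type arrays as 1 group, which is another contrast. Hdac8 was -0.17 without null replicate 1 and Hdac4 -0.075 without null replicate 2. Against LSK/Flt3+ cells, Hdac1 was -0.059 after quantile normalization, -0.0029 with medians aligned, -0.015 with the mean of all probe sets and -0.036 with the wild-type arrays as 1 group, where Hdac2 was -0.067. Hdac4 was 0.039 with the mean of all probe sets. The causes were not tested. No paired analysis was possible because the wild-type groups have 1 array each and the labels give them no replicate number.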
